A study of Homo sapiens with 12 samples.

Results

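Transcripts of 30 genes for the synthesis of sterols and fatty acids were measured by RNA-seq in HEK293 cells that expressed forms of PEG10. The genes were chosen by name, as genes controlled by the sterol regulatory element-binding proteins (SREBPs). The rule used no measured value, but earlier results of these data were known when the genes were chosen. All 30 were found among the 26485 genes of the count table, and all 30 passed the filter on low counts, which left 17176 genes. They comprise 7 genes of the mevalonate pathway, 11 of the later sterol steps, 4 for regulation and transport and 8 for fatty acids.

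HEK293 is a cell line from human embryonic kidney, and the cells used here were wild type. The 3 PEG10 constructs were gag-pol, which carries capsid, nucleocapsid, protease and the rest of pol, gag, which ends before pol, and NC, the nucleocapsid fragment at the end of gag that holds the zinc finger. Control cells received LifeAct-Dendra2 per the labels, an actin-binding peptide fused to a fluorescent protein, while the study's methods speak of a pCDNA control in one place. Each construct was expressed transiently from a CMV promoter in 3 replicates, which were separate passages of the culture, and 12 poly(A) libraries were sequenced. Replicate numbers stand for the passages in what follows. Cells that took up the plasmid were not separated from cells that did not, so the number of responding cells and the response of each cell cannot be told apart.

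Sterols and fatty acids are built from acetyl-CoA. The mevalonate pathway makes isoprenoid units, which are joined to squalene, closed to lanosterol and trimmed to cholesterol, while carboxylation and repeated condensation of acetyl-CoA gives fatty acids, which desaturases and elongases then modify. SREBPs, encoded by *SREBF1* and *SREBF2*, are held in the membrane of the endoplasmic reticulum while sterols are plentiful, with the help of INSIG proteins. When sterols fall, SCAP escorts them to the Golgi, proteases release their N-terminal part, and this part enters the nucleus and activates the genes of both pathways. *INSIG1* and *SREBF2* are themselves targets.

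SREBPs bind a sterol regulatory element and usually act with NF-Y, which binds the CCAAT box, and Sp1, which binds the GC box. Promoters are shown for *SREBF2*, whose promoter window alone among the 26 genes searched held an exact match to the element as written below. They are also shown for *SCD*, *HMGCS1* and *MSMO1*, whose transcripts passed a test between constructs. The windows run from 250 bases before to 50 bases after the RefSeq start of transcription, on GRCh38.p14. Capitals mark the sterol regulatory element (TCACNCCAC), the E-box (CACGTG) and the CCAAT box, searched on both strands. The window of *SREBF2* is chr22:41832855-41833154 on the forward strand, that of *SCD* is chr10:100346983-100347282 on the forward strand, that of *HMGCS1*, 1 of 2 for this gene, is chr5:43313363-43313662 on the reverse strand, and that of *MSMO1* is chr4:165327419-165327718 on the forward strand.
SREBF2: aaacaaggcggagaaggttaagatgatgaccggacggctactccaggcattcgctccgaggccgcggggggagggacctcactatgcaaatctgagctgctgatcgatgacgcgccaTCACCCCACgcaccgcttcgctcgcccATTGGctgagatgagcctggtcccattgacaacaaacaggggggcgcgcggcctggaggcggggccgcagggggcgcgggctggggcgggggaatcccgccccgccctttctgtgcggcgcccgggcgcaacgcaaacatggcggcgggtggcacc
SCD: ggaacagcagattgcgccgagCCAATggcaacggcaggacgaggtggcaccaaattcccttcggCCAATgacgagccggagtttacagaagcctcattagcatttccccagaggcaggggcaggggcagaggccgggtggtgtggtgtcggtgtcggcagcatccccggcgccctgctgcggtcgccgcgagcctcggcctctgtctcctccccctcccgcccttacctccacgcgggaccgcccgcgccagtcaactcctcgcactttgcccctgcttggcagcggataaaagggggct
HMGCS1: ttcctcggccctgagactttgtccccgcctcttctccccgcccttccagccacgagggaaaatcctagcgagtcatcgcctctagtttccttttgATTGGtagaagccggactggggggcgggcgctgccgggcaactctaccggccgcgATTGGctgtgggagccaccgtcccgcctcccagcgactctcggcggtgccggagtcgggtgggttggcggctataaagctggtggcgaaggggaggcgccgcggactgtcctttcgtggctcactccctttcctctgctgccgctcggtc
MSMO1: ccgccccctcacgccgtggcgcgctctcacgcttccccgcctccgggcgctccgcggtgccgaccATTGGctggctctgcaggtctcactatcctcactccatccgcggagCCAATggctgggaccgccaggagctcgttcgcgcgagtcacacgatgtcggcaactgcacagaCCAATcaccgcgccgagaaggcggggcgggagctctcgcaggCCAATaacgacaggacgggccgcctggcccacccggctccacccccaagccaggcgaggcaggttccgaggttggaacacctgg

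RefSeq windows were matched for 26 of the 30 genes, in 37 windows. *ACAT2*, *FDFT1*, *SQLE* and *FASN* were not matched. An exact match to the sterol regulatory element TCACNCCAC was found in the window of *SREBF2* at position -133 (chromosome 22, 41832972 to 41832980), where it reads TCACCCCAC. None was found for the other genes with a window. Variants of this sequence and copies outside the windows were not searched, so their absence is not shown. The exact sequence occurred in 1.13% of the 35116 windows of all genes. The E-box was found for *INSIG1*, *LSS* and *SC5D*, in 4 of the 37 windows, and in 7.26% of all windows. A CCAAT box was present for 20 of the 26 genes. By window it was present in 24 of the 37, against 34.6% of all windows. There were 4 copies for *MSMO1*, 2 for *HMGCS1*, 2 for *SCD* and 1 for *SREBF2*. The GC box (GGGCGG) was present for 25 of the 26 genes, and by window in 32 of the 37, against 45% of all windows. No matches of different motifs overlapped in the windows of the set. Among the matched genes that were higher with NC than with gag, 9 of 11 had a CCAAT box, and 11 of the other 15 had one.

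The 12 libraries held 30625725 to 45316749 counts in genes. *PEG10* itself had 8404 to 12638 normalized counts with control, 91543 to 146122 with the short NC fragment, 1409240 to 2439090 with gag and 1089350 to 2835980 with gag-pol. Normalized counts are counts scaled to a library of mean size with TMM, which corrects for differences in composition. Of 9 markers of HEK293 cells, *NEFM* was low, at 42 to 122, and the lowest value of the other 8 was 173. *UBQLN1*, *UBQLN2* and *UBQLN4* were expressed. The sum of 11 markers of leukocytes, endothelium, hepatocytes, muscle and adipocytes was 213 to 361 with control, 139 to 235 with NC, 251 to 1052 with gag and 149 to 179 with gag-pol. *PTPRC* and *ADIPOQ* were at 0 in most libraries, while *CKM* ranged from 13 to 137 and *ALB* from 6 to 52. The adipocyte gene *PLIN1* stood at 119 to 196 with control and 143 to 196 with gag. It stood lower, at 76.5 to 89.6 with gag-pol and 71.6 to 95.4 with NC. The muscle gene *MYH7* stood at 728 in gag replicate 2 and at 0 to 11 elsewhere. The part of these markers in the results was not tested.

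In control cells 3 enzymes of fatty acid synthesis were the most abundant transcripts of the set. Levels were compared as normalized counts per kilobase of annotated exon, averaged over the 3 control libraries. *FASN*, the fatty acid synthase, stood highest at 8064 ± 873 (SD, n = 3). *SCD*, the desaturase that makes oleate from stearate, followed at 4205 ± 567, and *ACLY*, which makes cytosolic acetyl-CoA from citrate, at 3891 ± 520. The libraries of *SCD* and *ACLY* overlapped on this scale. *EBP*, a sterol isomerase, reached 1962 ± 33.4. Of the regulators, *INSIG1* was at 1661 ± 259 and *SREBF2* at 1479 ± 160, with overlapping ranges, and *SREBF1* at 439 ± 67.0. Every control library had more *SREBF2* than any had *SREBF1* per kilobase. The lowest were *HSD17B7*, a sterol ketoreductase, at 110 ± 1.86, the elongase *ELOVL6* at 104 ± 1.79, and mevalonate kinase *MVK* at 92.4 ± 19.9. The exon length pools all annotated isoforms, so genes with long alternative exons, such as *MVK* with 9018 bases, are understated.

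Counts were high for all 30 genes: the lowest raw count of the set in any library was 375, for *HSD17B7*. Some counts are uncertain because exons overlap other genes and the strand setting of the counting is not given in the sources used here. In GENCODE release 44, *ACAT2* shared 17.2% of its exon bases with *TCP1* on the other strand, *SREBF1* shared 6.75% with *RAI1*, and *FADS1* and *FADS2* shared 490 bases with each other. *CYP51A1* and *EBP* each shared bases with unnamed genes on their own strand, 68.2% for *CYP51A1* and 36.4% for *EBP*.

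**Figure D1:**
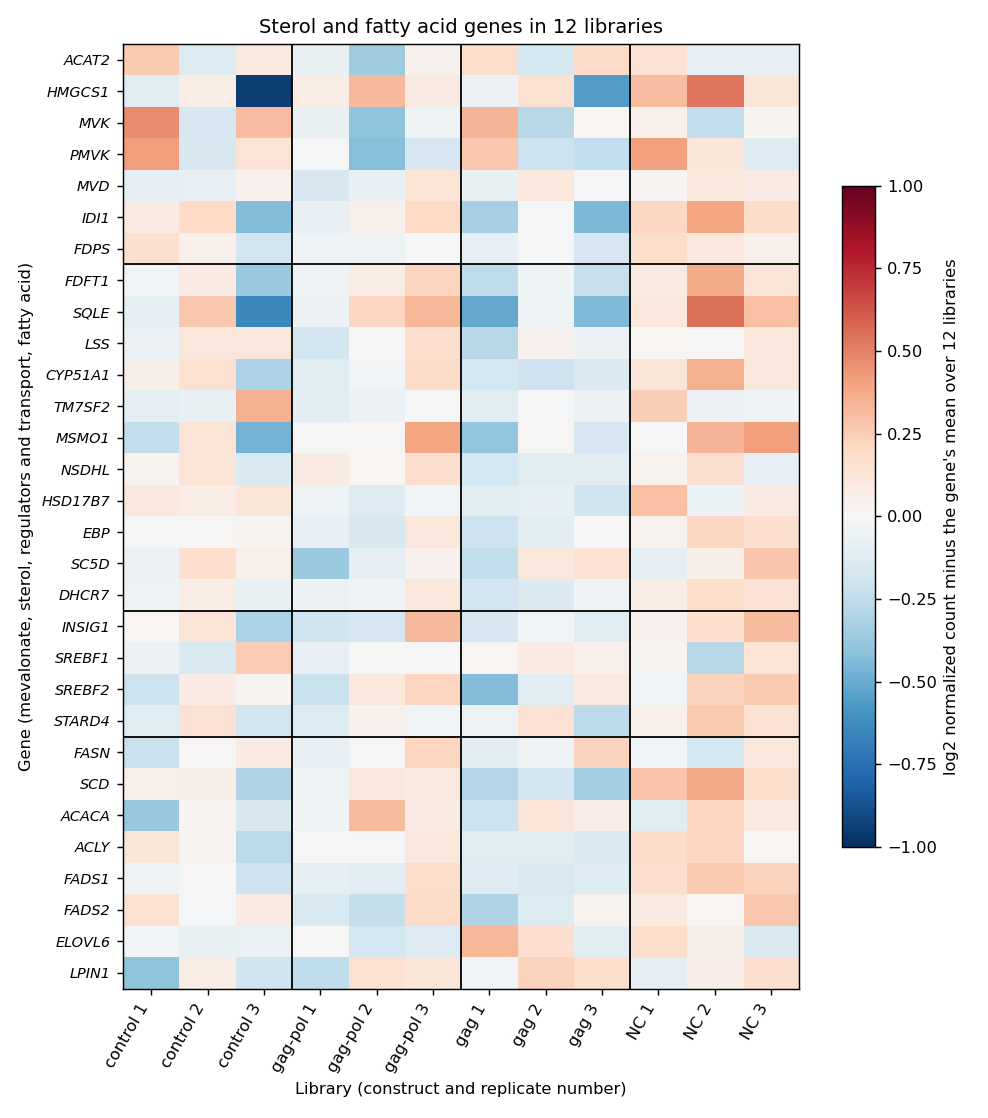
Log2 normalized count of each of the 30 genes (rows, by role) in each of the 12 libraries (columns, by construct and replicate number), minus the gene's mean over the 12 libraries. NC replicate 2 held the highest value of 11 genes and control replicate 3 the lowest value of 9.

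The pairing of single constructs with the most calls was NC against gag. With NC, 13 of the 30 genes were higher than with gag and 0 were lower. A gene was called where the quasi-likelihood test of edgeR, fitted on construct and replicate number, gave an adjusted p under 0.05. Over all 17176 genes tested, 16.9% were called in this comparison and 8.76% were called higher. The 13 genes were *HMGCS1* and *IDI1* of the mevalonate pathway, *FDFT1*, *SQLE*, *CYP51A1*, *MSMO1*, *EBP* and *DHCR7* of the sterol steps, the regulator *SREBF2*, and *SCD*, *ACLY*, *FADS1* and *FADS2* of the fatty acid steps. The median difference of the 30 genes was 0.22 on the log2 scale, against -0.006 over all genes tested, and 24 of the 30 differences were positive. For 13 of the 30, every NC library lay above every gag library, which was so for 7.09% of all genes tested. These 13 included *FDPS*, *NSDHL*, *HSD17B7* and *INSIG1*, which did not pass the test, and left out *HMGCS1*, *MSMO1*, *SREBF2* and *FADS2*, which did.

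This count rested on how the passages were treated. Without the replicate number as a term, edgeR called 0 of the 30 genes between NC and gag (10 at an unadjusted p under 0.05) and 1 of the 17176. With the replicate number, 2 of the 30 were called when gag replicate 1 was left out, 6 when gag replicate 2 was, 8 when gag replicate 3 was, and 4 and 6 when NC replicates 1 and 2 were. In those fits 5.36%, 9.45%, 11.4%, 7.71% and 12.4% of all genes were called. With *PEG10*, which was more abundant with gag than with NC, left out of the counts, 13 were called. Without all 4 libraries of replicate 1 the count was 1, where 1.98% of all genes were called, and without those of replicate 2 it was 3, where 8.83% were. *SCD* was called in each of the 22 alternatives that kept the replicate number, with adjusted p-values from 1.8e-08 to 0.031 in edgeR or DESeq2.

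**Figure D2:**
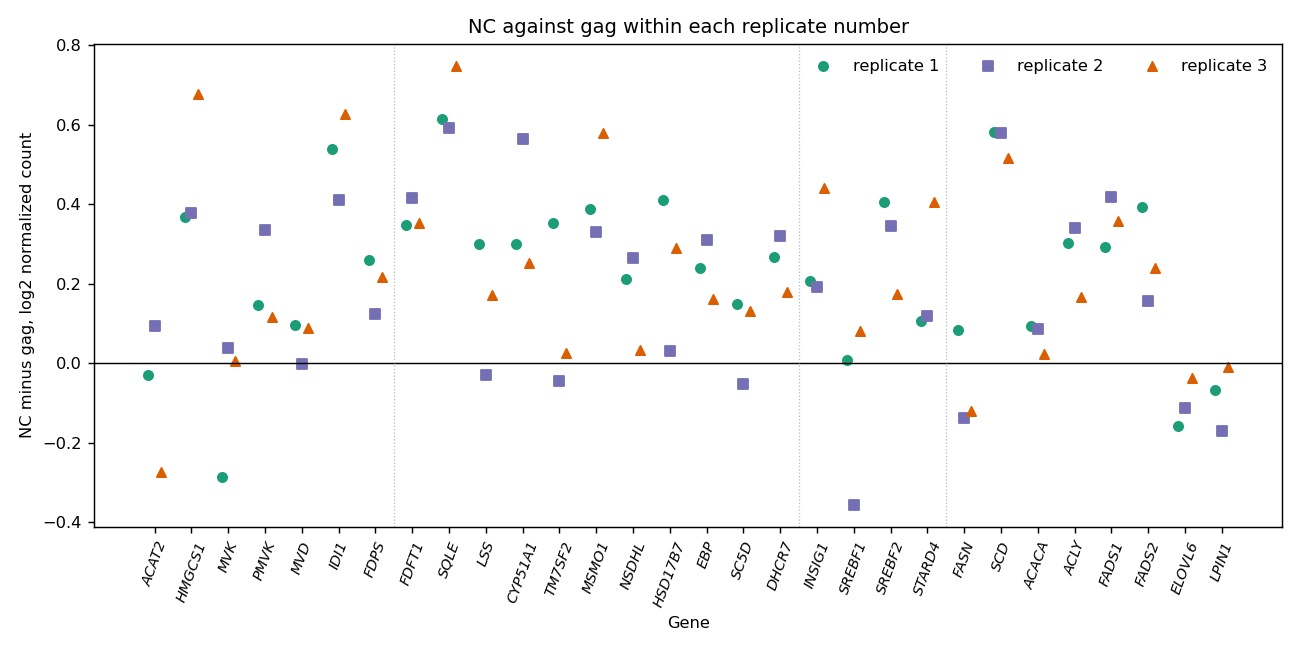
Difference between NC and gag in log2 normalized count (vertical axis) for each of the 30 genes (horizontal axis, by role), within replicate 1, 2 and 3. Points above 0 were higher with NC: 26 genes in replicate 1, 22 in replicate 2 and 26 in replicate 3, where 51.0%, 48.5% and 50.4% of all genes tested were.

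In each passage more of the genes were higher with NC. NC exceeded gag for 26 of the 30 genes in replicate 1, 22 in replicate 2 and 26 in replicate 3. Among all genes tested, 51.0%, 48.5% and 50.4% were higher with NC in the same replicates. Of the 30 genes, 20 were higher in all 3 replicates, and the share of all genes for this was not computed. The median difference of the 30 genes was 0.26, 0.17 and 0.17 on the log2 scale.

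*HMGCS1*, the synthase that makes HMG-CoA, had normalized counts in replicates 1, 2 and 3 of 3875, 4405 and 2165 with control, 4415, 5245 and 4455 with gag-pol, 4015, 4659 and 2850 with gag and 5186, 6057 and 4556 with NC. All gag-pol and NC libraries lay above all control libraries, and control replicate 3 was the lowest of the 12. NC and gag overlapped across passages, but within every passage NC was higher, by 0.37, 0.38 and 0.68 on the log2 scale. *HMGCS1* was called in 3 pairings by edgeR: NC against control, with a log2 difference of 0.63 ± 0.13 (SE) and an adjusted p of 0.0091, gag-pol against control, with 0.49 ± 0.13 and 0.027, and NC against gag, with 0.47 ± 0.13 and 0.022. In replicate 3 alone its rise over control was 1.07 with NC and 1.04 with gag-pol, and in replicates 1 and 2 it was 0.42 and 0.46 with NC and 0.19 and 0.25 with gag-pol. Without replicate 3 the difference between gag-pol and control was 0.21 and was no longer called (adjusted p = 0.096, edgeR).

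*IDI1*, which isomerizes isopentenyl diphosphate, had 2595, 2809 and 1819 normalized counts with control, 2310, 2544 and 2815 with gag-pol, 1950, 2417 and 1801 with gag and 2835, 3215 and 2784 with NC. Every NC library lay above every gag library, with a log2 difference of 0.52 ± 0.12 (SE, adjusted p = 0.0062, edgeR), while NC replicate 3 fell just under control replicate 2. *MVK*, mevalonate kinase, went the other way. Its normalized counts were 986, 635 and 879 with control, 675, 538 and 690 with gag-pol, 901, 586 and 722 with gag and 739, 602 and 725 with NC. It was lower with gag-pol than with control in each replicate, by a log2 difference of -0.38 ± 0.11 (SE, adjusted p = 0.028, edgeR), though the libraries overlapped across passages, replicate 2 was low with every construct and the call held in 14 of the 22 alternatives that kept the replicate number. Of the other mevalonate genes, *ACAT2* (acetoacetyl-CoA thiolase), *PMVK* and *MVD*, which phosphorylate and decarboxylate the mevalonate product, and *FDPS* (farnesyl diphosphate synthase) passed no test between constructs. *PMVK* stood at -0.33 and *ACAT2* at -0.20 between gag-pol and control, and *FDPS* at 0.20 between NC and gag.

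**Figure D3:**
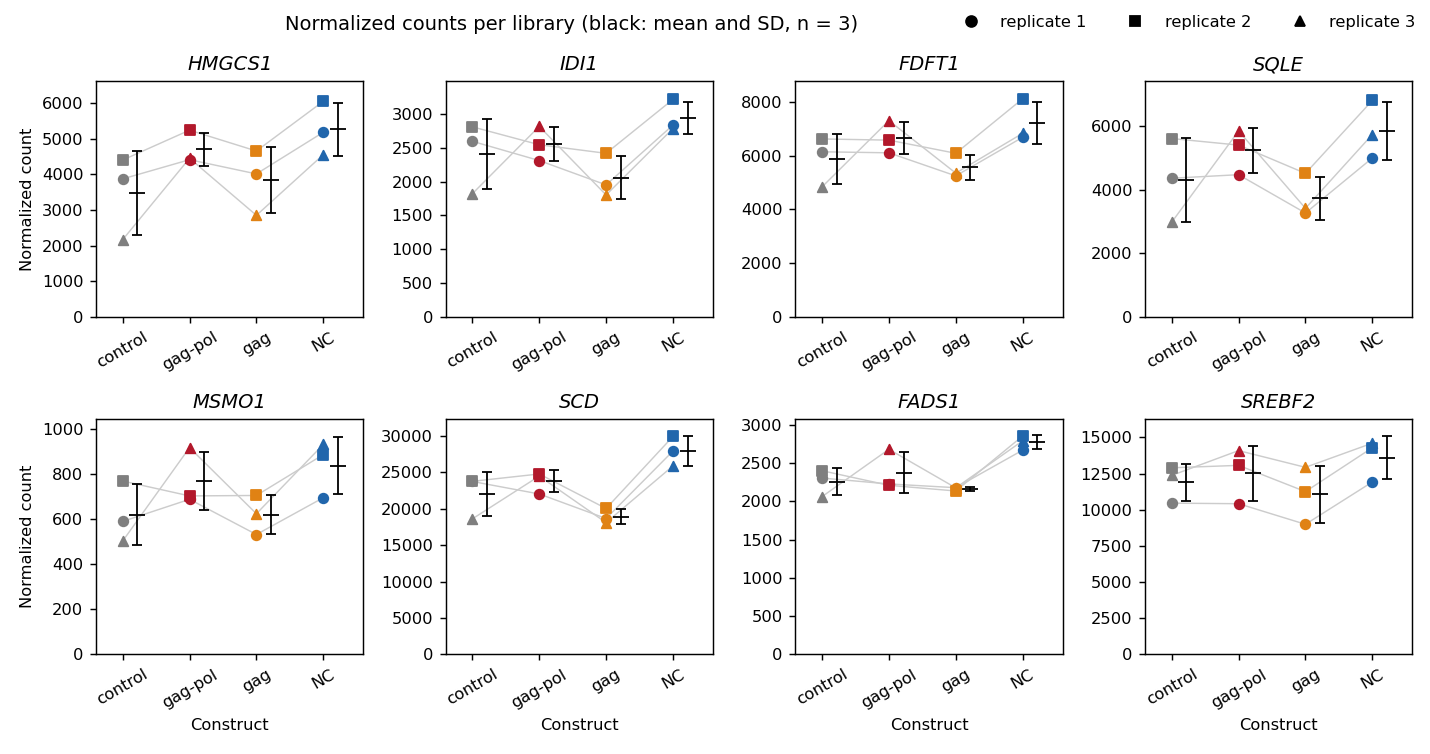
Normalized counts (vertical axes, from 0) of 8 genes in the 12 libraries, by construct. Shapes mark replicates 1, 2 and 3, grey lines join libraries of one replicate, and black bars give the mean and SD of 3 libraries. For *SCD* all 3 NC libraries stand above the other 9, and for *SREBF2* NC is the highest of the 4 constructs in each replicate.

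Of the 11 genes for the sterol steps, 6 were higher with NC than with gag, and all 11 differences were positive. *FDFT1*, which makes squalene, had normalized counts of 6141, 6619 and 4833 with control, 6103, 6575 and 7302 with gag-pol, 5244, 6085 and 5347 with gag and 6681, 8115 and 6829 with NC. All NC libraries lay above all control and all gag libraries, and the log2 difference was 0.37 ± 0.09 (SE) to gag (adjusted p = 0.0088, edgeR) and 0.30 ± 0.09 to control (adjusted p = 0.04). The call of *FDFT1* against control held in 10 of the 22 alternatives that kept the replicate number, and without control replicate 3 the difference was 0.17 (adjusted p = 0.31, edgeR). *SQLE*, squalene epoxidase, one of the slow steps of the pathway, had 4365, 5617 and 2978 with control, 4477, 5410 and 5856 with gag-pol, 3269, 4519 and 3418 with gag and 5003, 6817 and 5743 with NC. It had the largest difference of the set between NC and gag, 0.65 ± 0.16 (SE, adjusted p = 0.025, edgeR), with no overlap of libraries. Control replicate 3 was the lowest of the 12 libraries and the 3 control libraries spread widely, at 4320 ± 1320 (SD, n = 3). NC against control gave 0.45 ± 0.16 (SE) for *SQLE*, with an adjusted p of 0.11 in edgeR.

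*CYP51A1*, the lanosterol demethylase, had normalized counts of 2695, 2873 and 2085 with control, 2380, 2538 and 2926 with gag-pol, 2280, 2232 and 2339 with gag and 2807, 3303 and 2789 with NC. The gag libraries were close together and all lay under the NC libraries, with a log2 difference of 0.37 ± 0.10 (SE, adjusted p = 0.018, edgeR). *MSMO1*, the methylsterol oxidase of the next steps, had 589, 768 and 502 with control, 687, 702 and 916 with gag-pol, 531, 704 and 623 with gag and 694, 885 and 930 with NC. NC replicate 1 lay just under gag replicate 2, and within each passage NC was higher than gag, by 0.39, 0.33 and 0.58. The *MSMO1* difference was 0.43 ± 0.14 (SE) to gag (adjusted p = 0.035, edgeR) and 0.43 ± 0.14 to control (adjusted p = 0.049), and the latter call held in 7 of the 22 alternatives. *EBP* and *DHCR7*, the last reductase on the way to cholesterol, were called only between NC and gag among the comparisons of constructs. *EBP* rose from 3223 ± 232 normalized counts (SD, n = 3) with gag to 3798 ± 232 with NC (adjusted p = 0.036, edgeR) and *DHCR7* from 3417 ± 189 to 4078 ± 145 (adjusted p = 0.023), both without overlap.

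*LSS*, *TM7SF2*, *NSDHL*, *HSD17B7* and *SC5D*, enzymes of lanosterol closure and of later sterol steps, passed no test between constructs. Between NC and gag their log2 differences were 0.15 for *LSS*, 0.12 for *TM7SF2*, 0.17 for *NSDHL*, 0.25 for *HSD17B7* and 0.08 for *SC5D*. With gag against control all 11 sterol genes had negative differences, from -0.23 for *HSD17B7* to -0.006 for *MSMO1*, and 0 of them had an unadjusted p under 0.05 in edgeR. All gag libraries of *HSD17B7* lay under all control libraries, at 427 to 457 against 515 to 532 normalized counts. The gag-pol libraries, at 448 to 481, also lay under all control libraries. The share of all genes with such a separation from control was not computed.

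Of the regulators, only *SREBF2* was called. Its normalized counts were 10452, 12898 and 12370 with control, 10414, 13065 and 14086 with gag-pol, 8990, 11251 and 12929 with gag and 11916, 14285 and 14600 with NC. It was lowest in replicate 1 for all constructs, and within each passage NC was the highest of the 4. The log2 difference to gag was 0.31 ± 0.07 (SE, adjusted p = 0.0072, edgeR) and that to control was 0.19 ± 0.07 (adjusted p = 0.096). The cleaved SREBP protein was not measured in these libraries.

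*SREBF1*, the other SREBP gene, had normalized counts of 3412, 3194 and 4240 with control, 3358, 3559 and 3568 with gag-pol, 3601, 3754 and 3686 with gag and 3620, 2934 and 3901 with NC. Both the highest value, in control replicate 3, and the lowest, in NC replicate 2, lay far from the tight gag-pol and gag libraries. Its log2 differences were -0.05 ± 0.09 (SE) for NC and -0.04 ± 0.09 for gag-pol against control, and none passed the test. *INSIG1*, which retains SCAP, had 6326, 6845 and 5012 with control, 5450, 5567 and 7829 with gag-pol, 5574, 6148 and 5752 with gag and 6438, 7027 and 7808 with NC. All NC libraries lay above all gag libraries, with 0.28 ± 0.14 (SE) and an adjusted p of 0.21 in edgeR. Between gag-pol and control *INSIG1* differed by -0.22 and -0.30 in replicates 1 and 2 and by 0.64 in replicate 3, and without replicate 3 the difference turned from 0.04 to -0.26 (adjusted p = 0.038). *STARD4*, a sterol carrier of the cytosol, stood at 0.21 ± 0.10 for NC against gag and at 0.21 for NC against control, and did not pass.

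*SCD* had the lowest adjusted p of the set between NC and gag. Its normalized counts were 23760, 23780 and 18620 with control, 22044, 24791 and 24502 with gag-pol, 18670, 20048 and 18107 with gag and 27945, 29952 and 25898 with NC. The NC libraries were above all 9 others, and the gag-pol libraries were above all gag libraries. By edgeR the *SCD* log2 difference was 0.56 ± 0.08 (SE) for NC against gag (adjusted p = 0.00041), 0.34 ± 0.08 for NC against control (adjusted p = 0.012) and 0.33 ± 0.08 for gag-pol against gag (adjusted p = 0.02). NC exceeded gag by 0.58, 0.58 and 0.52 in the 3 replicates. The difference between NC and control fell to 0.25 (adjusted p = 0.1) without control replicate 3.

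*FADS1* and *FADS2*, neighbouring genes on chromosome 11 for the desaturases of polyunsaturated fatty acids, rose together with NC against gag. *FADS1* had normalized counts of 2305, 2401 and 2062 with control, 2228, 2210 and 2681 with gag-pol, 2179, 2136 and 2177 with gag and 2670, 2855 and 2792 with NC. All NC libraries lay above all gag and all control libraries, with log2 differences of 0.36 ± 0.09 (SE, adjusted p = 0.0082, edgeR) and 0.30 ± 0.09 (adjusted p = 0.032). The latter call held in 15 of the 22 alternatives, and the *FADS1* difference to control was 0.20 (adjusted p = 0.24, edgeR) without control replicate 3. *FADS2* averaged 4320 ± 497 (SD, n = 3) with gag and 5175 ± 467 with NC, a difference of 0.26 ± 0.08 (SE, adjusted p = 0.034, edgeR), and the libraries overlapped.

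*ACLY* had normalized counts of 22501, 21038 and 17251 with control, 20706, 20358 and 22383 with gag-pol, 19007, 18984 and 18674 with gag and 23468, 24056 and 20956 with NC. Every NC library lay above the narrow range of gag, by a log2 difference of 0.27 ± 0.09 (SE, adjusted p = 0.033, edgeR). *ACACA*, the acetyl-CoA carboxylase that starts fatty acid synthesis, had another order. Its normalized counts were 5081, 6752 and 5908 with control, 6417, 8227 and 7007 with gag-pol, 5694, 7216 and 6918 with gag and 6078, 7659 and 7032 with NC. Control was the lowest construct in each passage, and *ACACA* was higher than control with gag-pol (0.29 ± 0.07, SE, adjusted p = 0.0095, edgeR) and with NC (0.23 ± 0.07, adjusted p = 0.035). These *ACACA* calls held in 18 and 11 of the 22 alternatives. With gag it stood at 0.16 ± 0.07 (adjusted p = 0.29). NC against gag was 0.07 ± 0.07 and did not pass.

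*FASN*, *ELOVL6* and *LPIN1* passed no edgeR test between constructs. *FASN* averaged 75169 ± 8141 normalized counts (SD, n = 3) with control, 75921 ± 7545 with NC, 79146 ± 10162 with gag and 80218 ± 8571 with gag-pol, a log2 difference of -0.05 ± 0.09 (SE) between NC and gag. *ELOVL6* and *LPIN1*, a phosphatidate phosphatase, had negative differences between NC and gag in all 3 replicates, of -0.10 and -0.08 in the fit. *LPIN1* had a log2 difference of 0.30 ± 0.09 (SE) between gag and control, with an adjusted p of 0.093 in edgeR and 0.042 in DESeq2.

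**Figure D4:**
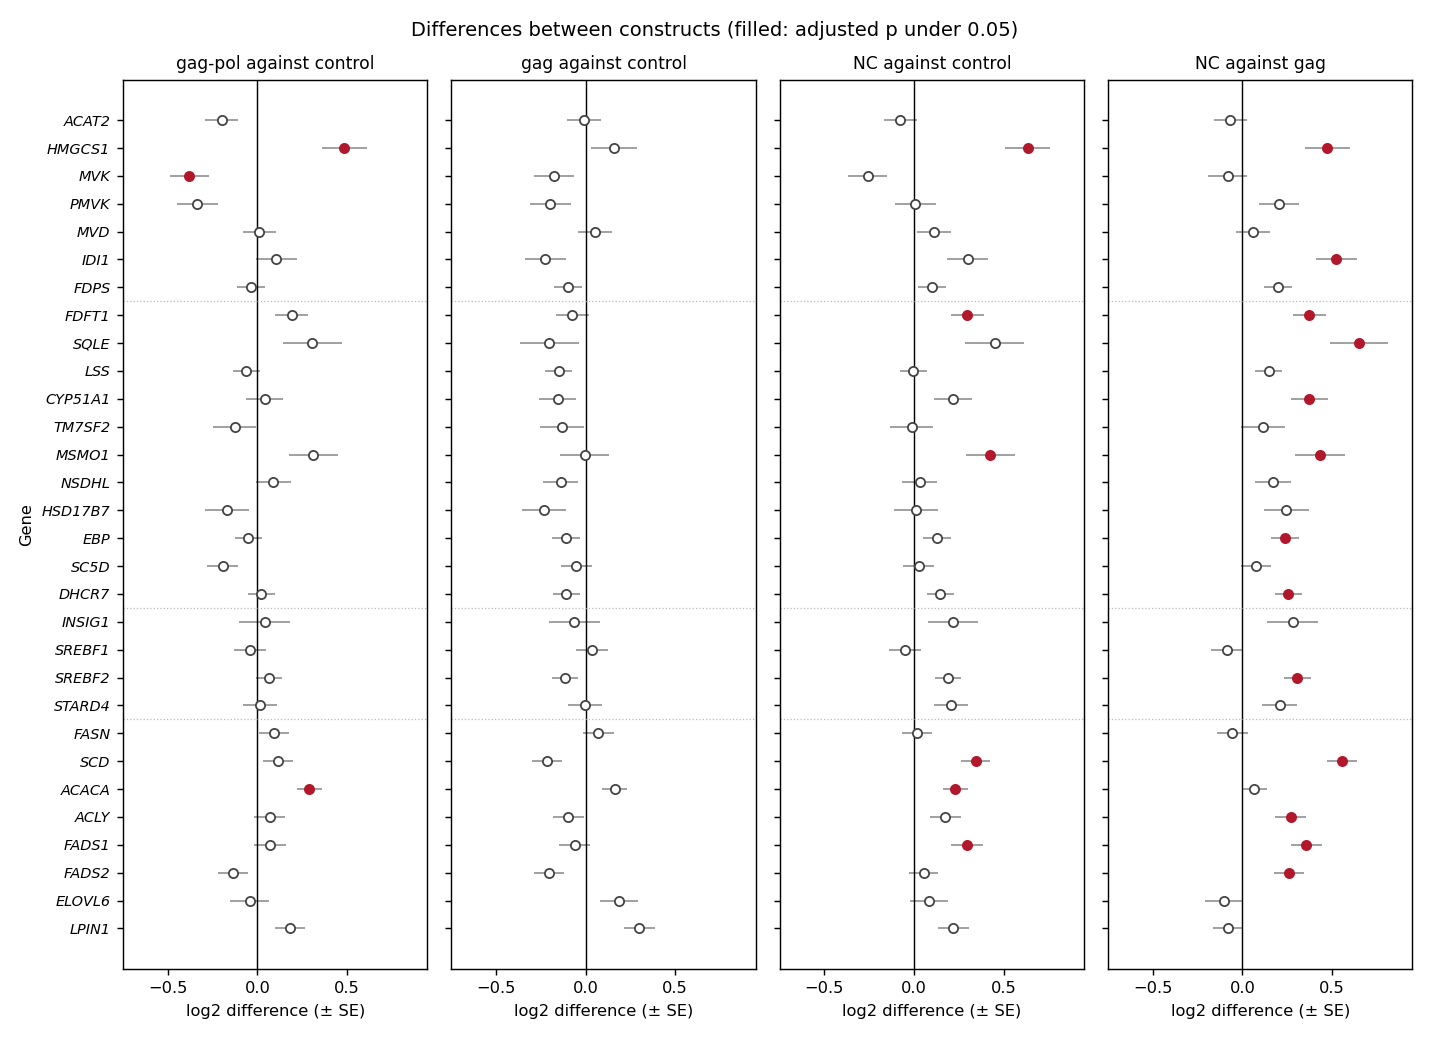
Log2 difference (horizontal axes, bars give ± SE of the edgeR fit) of the 30 genes for gag-pol, gag and NC against control and for NC against gag. Filled points passed an adjusted p of 0.05: 3 with gag-pol, 0 with gag, 6 with NC and 13 between NC and gag.

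The comparisons with control used the same 3 control libraries, so the values of the constructs are given side by side. With NC against control 6 of the 30 genes were called, all higher: *HMGCS1*, *FDFT1*, *MSMO1*, *SCD*, *ACACA* and *FADS1*. The background was 11.2% of all genes called in either direction and 6.04% called higher. The median difference was 0.14 on the log2 scale and 25 of 30 differences were positive. With gag-pol 3 were called, *HMGCS1* and *ACACA* higher and *MVK* lower, against a background of 11.3%, with a median of 0.03. With gag 0 were called in edgeR, against a background of 1.08%, and 4 had an unadjusted p under 0.05. DESeq2 called *LPIN1*, where it called 3.2% of all genes. The median with gag was -0.10 and 23 of 30 differences were negative.

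Control replicate 3, the lowest library for 9 of the genes, bore on these counts. Without it 1 gene was called for NC and 1 for gag-pol against control, and 3 were called with gag, all lower, where 2.1%, 4.22% and 2.44% of all genes were called. Without all of replicate 3 the count with gag was 4, all lower (4.26% of all genes), and with NC it was 2 (4.71%). NC against control also fell to 1 called gene without NC replicate 1 (5.5% of all genes), 2 without NC replicate 3 (4.69%) and 3 without gag replicate 1 (9.06%). Gag-pol against control fell to 1 without gag-pol replicate 1 (5.13%). Without the replicate number as a term 0 genes were called against control with gag-pol, gag or NC in edgeR, with 0, 0 and 5 at an unadjusted p under 0.05.

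The balance of signs for gag-pol differed between passages, and 14 of the 30 differences between gag-pol and control changed sign when replicate 3 was left out. Against control, 8 of the 30 genes were higher with gag-pol in replicate 1, 9 in replicate 2 and 22 in replicate 3. For NC against control the numbers were 25, 23 and 23, and for gag against control 8, 7 and 17. NC exceeded gag-pol for 28, 26 and 17 genes. Between NC and gag-pol 0 of the 30 genes were called in edgeR or DESeq2, 6 had an unadjusted p under 0.05 in edgeR, and 0.0873% of all genes were called. The largest differences in that pairing were 0.34 ± 0.11 (SE) for *PMVK* and 0.23 ± 0.08 for *SCD*. Without gag-pol replicate 3, 1 gene was called, where 1.6% of all genes were, and without all of replicate 3, 6 were called, all higher with NC, where 3.11% of all genes were. Gag-pol against gag gave 1 call, *SCD*, against a background of 6.46%. This became 0 without gag-pol replicate 3 (0.741% of all genes) or without gag replicate 1, 2 or 3 (0.696%, 2.7% and 3.03%). It was 4 without gag-pol replicate 2 (5.98% of all genes) and 5 without control replicate 3 (10.6% of all genes).

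Gag-pol cleaves itself and releases a nucleocapsid, and NC and gag-pol were also compared as a pair. From these same libraries the study had already reported a large cluster of genes that rose with gag-pol and nucleocapsid and not with gag. The pair matches that pattern, so its calls are not independent of an earlier result of these data. In the mean of NC and gag-pol against the mean of control and gag, 12 of the 30 genes were called, 11 higher and 1 lower, where 24.7% of all genes were called and 13.1% were called higher. The higher genes were *HMGCS1* (0.48 ± 0.09, SE), *SQLE* (0.48 ± 0.12), *MSMO1* (0.37 ± 0.10), *SCD* (0.34 ± 0.06), *IDI1* (0.32 ± 0.08), *FDFT1* (0.28 ± 0.06), *FADS1* (0.21 ± 0.06), *CYP51A1* (0.21 ± 0.07), *SREBF2* (0.19 ± 0.05), *ACACA* (0.18 ± 0.05) and *ACLY* (0.17 ± 0.06), and the lower gene was *MVK* (-0.23 ± 0.08). Within replicates 1, 2 and 3 the difference between these means was positive for 23, 17 and 24 of the 30 genes. The median difference was 0.09, 0.02 and 0.18 on the log2 scale, so replicate 2 showed little shift. Of the 11 higher genes, only *HMGCS1* and *ACACA* were also called higher with gag-pol against control, where the median of the 30 genes was 0.03. With NC against control *HMGCS1*, *FDFT1*, *MSMO1*, *SCD*, *ACACA* and *FADS1* were. *HMGCS1*, *SCD* and *FDFT1* were called in each of the 21 alternatives that kept the replicate number. These libraries are those of the pairings of single constructs, and for none of the 30 genes were all gag-pol and NC libraries above or below all gag and control libraries. The share of all genes tested with such a separation was not computed. Without the replicate number 0 were called in edgeR (9 at an unadjusted p under 0.05), and without all of replicate 1 or of replicate 3 the count was 6, with 13% of all genes called in each. In the test of the 3 constructs together 8 of the 30 genes were called (*SCD*, *HMGCS1*, *FDFT1*, *FADS1*, *IDI1*, *ACACA*, *SREBF2* and *MSMO1*), against 20.6% of all genes. DESeq2 called 15 in that test (29% of all genes), and edgeR called 13 without gag-pol replicate 3 (19.8%). It called 4 without gag replicate 1 (11.3%) or NC replicate 1 (13%), and 5 without gag replicate 2 (14.8%).

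The passages themselves differed in parts of the set, with the construct held fixed. In the fit to all 12 libraries, each pairing of passages called a smaller share of the set than of all genes. In replicate 2 against 1 edgeR called 7 of the 30 genes (background 30.5%), with *ACACA* (0.36), *LPIN1* (0.33), *SREBF2* (0.30) and *SC5D* (0.25) higher and *MVK* (-0.47), *PMVK* (-0.44) and *ACAT2* (-0.32) lower on the log2 scale. In replicate 3 against 1 it called 10 (background 41.6%), with *SREBF2* (0.37), *SC5D* (0.32), *FASN* (0.27), *LPIN1* (0.26), *ACACA* (0.21), *LSS* (0.21) and *FADS2* (0.20) higher and *HMGCS1* (-0.36), *PMVK* (-0.36) and *ELOVL6* (-0.23) lower. In replicate 3 against 2 it called 6 (background 27.1%), with *MVK* (0.35), *ACAT2* (0.25), *FADS2* (0.24) and *FASN* (0.21) higher and *HMGCS1* (-0.58) and *STARD4* (-0.23) lower. *SREBF2* was higher and *HMGCS1* lower in replicate 3 than in replicate 1. The first count, of replicate 2 against 1, was 13 without control replicate 3 (32.6% of all genes) or without gag-pol replicate 3 (31.3%). That of replicate 3 against 1 was 6 without gag replicate 1 (32.1%). That of replicate 3 against 2 was 2 without control replicate 2 (18.3%) and 3 without gag replicate 3 (19%).

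**Figure D5:**
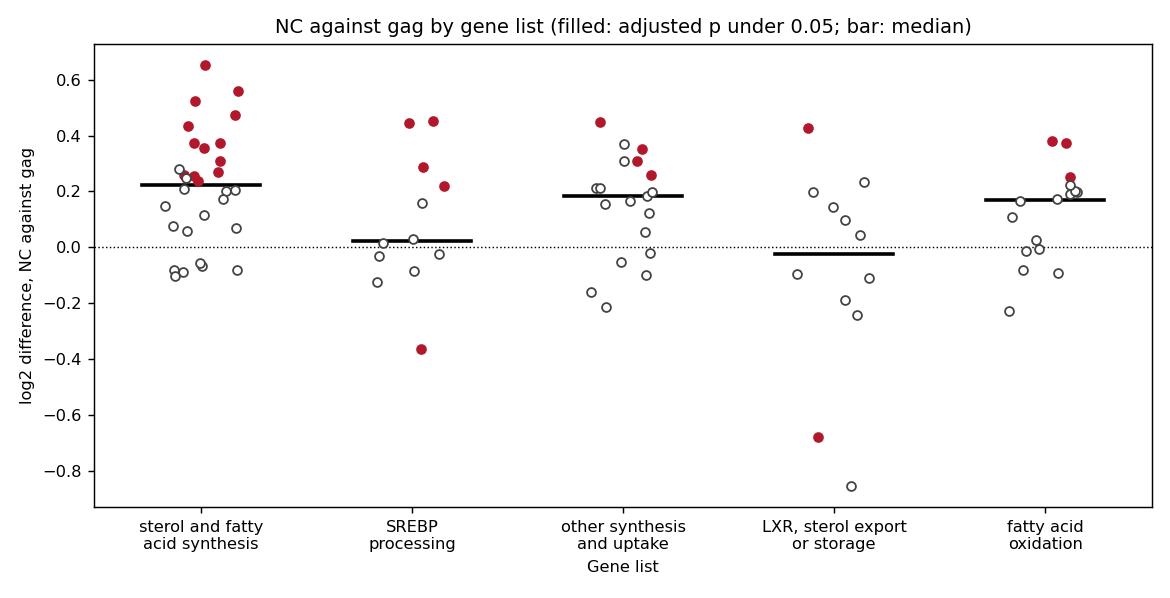
Log2 difference between NC and gag (vertical axis) for the 30 genes and for the tested genes of 4 related lists (horizontal axis). Filled points passed an adjusted p of 0.05 and bars mark medians, at 0.22 for the 30 genes, 0.02 for SREBP processing, 0.18 for other synthesis and uptake, -0.03 for LXR and sterol export or storage and 0.17 for fatty acid oxidation.

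Other genes of the pathway were taken from 4 lists and are given for NC against gag, where 16.9% of all genes were called. Of 12 genes for SREBP processing, 4 were higher and 1 lower. *MBTPS2* (0.45 ± 0.10, SE), the intramembrane protease that frees SREBP, *ERLIN2* (0.45 ± 0.09), which takes part in protein degradation at the endoplasmic reticulum, and *C12orf49* (0.29 ± 0.09), a cofactor of the first protease, were among the higher genes, and the ubiquitin ligase *RNF139* (-0.36 ± 0.11) was lower. *SCAP* and *INSIG2* were not called. *MBTPS2* and *ERLIN2* were also called between passages, at -0.72 and -0.66 in replicate 3 against 1.

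Of 20 other genes for synthesis and uptake 19 passed the filter on low counts and were tested. *TMEM97* (0.45 ± 0.11, SE), *ELOVL5* (0.35 ± 0.08), *HACD3* (0.31 ± 0.08) and *ME1* (0.26 ± 0.08) were higher with NC than with gag and 0 were lower. *ELOVL5* and *HACD3* lengthen fatty acids and *ME1* supplies NADPH. In NC and gag-pol against control and gag, where 13.1% of all genes were called higher, 8 of the 19 were higher, among them *ACSS2*, *ACACB*, *ELOVL5*, *HACD3*, *TMEM97* and *PNPLA3*.

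LXR is activated by sterols and turns on genes for their export. Of 12 genes for LXR and for export or storage of sterols, *NPC2* (0.43 ± 0.12, SE), which carries cholesterol out of lysosomes, was higher with NC than with gag, and *MYLIP* (-0.68 ± 0.14), a ubiquitin ligase that LXR turns on, was lower. *APOE* was lower against control with gag-pol (-0.62 ± 0.08, SE, adjusted p = 7.6e-05, edgeR), gag (-0.38 ± 0.08, adjusted p = 0.02) and NC (-0.56 ± 0.08, adjusted p = 0.00043). It was also higher in replicate 3 than in replicate 1, by 1.20. Of 16 genes for fatty acid oxidation, *CPT2* (0.38 ± 0.13), *HADH* (0.37 ± 0.09) and *ETFA* (0.25 ± 0.08) were higher with NC than with gag and 0 were lower. *CPT2* was also called between passages, at -1.13 in replicate 3 against 1.

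Against control, the related lists gave further calls. *ERLIN1* and *MID1IP1* were higher with gag-pol, gag and NC, *ERLIN2* and *ELOVL5* with gag-pol and NC, and *TECR* was lower with gag-pol and gag. With NC *MBTPS2*, *PNPLA3*, *HADH*, *ECI1* and *ETFB* were also higher and *RNF139* and *MYLIP* lower, and with gag-pol *ACADVL* was lower. For gag-pol against gag, where 6.46% of all genes were called, *ERLIN2*, *ACSS2*, *ELOVL5* and *TMEM97* were higher. In NC and gag-pol against control and gag *MBTPS2*, *ERLIN1*, *ERLIN2*, *CPT2*, *HADH*, *ECI1* and *ETFA* were higher and *APOE* and *ACADVL* lower, where 24.7% of all genes were called.

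The related lists also differed between passages. In replicate 3 against 1, where 41.6% of all genes were called, edgeR called 6 of 12 genes for SREBP processing, among them *SCAP* and *SYVN1* as higher and *MBTPS2* and *ERLIN2* as lower. Of the 19 tested genes for other synthesis and uptake, 4 were higher, among them *TECR* and *HACD3*, and 5 were lower (*ACSS2*, *GPAM*, *MID1IP1*, *ME1* and *MCAT*). For LXR and export or storage, *NR1H2*, *ABCG1*, *LPCAT3*, *APOE*, *NPC1* and *NPC2* were higher and *OSBPL1A* was lower. For fatty acid oxidation, *CPT1A* and *ACADVL* were higher and *CPT2*, *ACADM*, *ACADL*, *HADH*, *DECR1* and *ETFB* were lower.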

How the data were processed

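Poly(A) RNA was sequenced by the authors as read pairs, mapped to GRCh38.p13 with STAR 2.7.3 and, with SAMtools 1.8 and featureCounts, counted per gene. The deposited values are raw counts for 26485 gene symbols. The annotation release, the strand setting and the handling of multi-mapping reads are not given in the sources used here. Libraries were grouped by construct. The authors modelled harvest date and construct, and the replicate number took the place of the date. After removal of construct means, 18 pairs of libraries with the same number correlated at 0.14 to 0.54 and 36 pairs with different numbers at -0.50 to 0.07.

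One model of construct and replicate number was fitted to the 12 libraries with edgeR 4.0.16 and limma 3.58.1 (R 4.3.3), with TMM normalization, filterByExpr (minimum count 10, minimum total 15) and the robust quasi-likelihood test. P-values were adjusted over 17176 genes by Benjamini-Hochberg, with a threshold of 0.05. The script was tested on simulated data. Alternatives were DESeq2 1.42.0, upper-quartile and RLE factors, counts without *PEG10*, other filters, no replicate number, the compared groups alone, and each library or replicate number left out. The pairings of constructs, their 3-construct test and the passages were compared. All 30 genes are named, with values per library for those called against control or in NC and gag-pol against control and gag and for *SREBF1*, *SREBF2* and *INSIG1*, and of the related lists the genes called between constructs or in replicate 3 against 1 are named, with *SCAP* and *INSIG2* added afterwards. Some genes of these lists enter the counts but are not reported here. The genes and lists were chosen with earlier results of these data known. Positions are from GENCODE release 44 and promoters from RefSeq. Tables and figures were made with pandas 2.3.3 and matplotlib 3.10.9 in Python 3.11.15.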

Additional observations from a re-analysis of the deposited data

How the results depend on the processing

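The numbers of the 30 genes called between constructs changed with the treatment of the replicate number and with single libraries. With no replicate block, 0 were called for gag-pol against control, NC against control, NC and gag-pol against control and gag, gag-pol against gag, NC against gag and the 3 constructs together in edgeR, with 0, 5, 9, 2, 10 and 5 at an unadjusted p under 0.05, and gag against control and NC against gag-pol also gave 0, with 0 and 0 at an unadjusted p under 0.05. DESeq2 called 1 for gag against control, 2 for gag-pol against gag and 15 for the 3 constructs together, where it called 3.2%, 10.1% and 29% of all genes. No filter gave 3 for gag-pol against gag (6.68% of all genes). With only the libraries of the compared groups, 0 were called for gag-pol against control (4 at an unadjusted p under 0.05) and 7 for gag-pol against gag. In those fits 6.84% and 15.9% of all genes were called. The cause of these changes was not tested.

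Leaving out 1 library or 1 replicate number gave 1 to 4 genes for gag-pol against control, 0 to 4 for gag against control, 1 to 8 for NC against control, 6 to 12 for NC and gag-pol against control and gag, 0 to 5 for gag-pol against gag, 1 to 15 for NC against gag, 0 to 6 for NC against gag-pol and 2 to 14 for the 3 constructs together. Between passages it gave 6 to 14 for replicate 2 against 1, 6 to 13 for replicate 3 against 1 and 2 to 8 for replicate 3 against 2. Over these fits the share of all genes called also changed, from 1.98% to 20.4% for NC against gag and from 2.1% to 13.5% for NC against control. Each such fit has fewer libraries, and where a construct kept fewer libraries the spread was shared across all groups. RLE factors, upper-quartile factors, *PEG10* left out and at least 10 counts in every library kept each count within 1.5 times. Of the values of single genes under an alternative, 5910 kept their direction and side of the threshold, 283 passed it no longer and 106 newly passed it. A further 211 changed sign, 191 of them when a library or replicate number was left out, from values of at most 0.31 to values of at most 0.26 in size. Of these 210 passed the threshold neither before nor after, and 1 passed it under the alternative: *INSIG1* in gag-pol against control was -0.26 (adjusted p = 0.038, edgeR) without replicate 3, and ran up to 0.21 when another library or replicate number was left out. The 3 libraries per construct limit the precision of every difference.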
